A study of Mus musculus with 12 samples.

Results

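The costimulatory receptors of the tumor necrosis factor (TNF) receptor superfamily were followed in mouse regulatory T cells (Treg) with and without Ikaros, the zinc finger transcription factor encoded by Ikzf1. They are 7 genes chosen by name, Tnfrsf4, Tnfrsf18, Tnfrsf9, Tnfrsf8, Tnfrsf25, Tnfrsf1b and Cd27, out of 36222 genes measured. Each name belonged to 1 gene identifier, and all 7 passed the filter on low values that left 13318 genes for testing. The study sequenced RNA of 12 samples, 3 in each of 4 groups. WT libraries came from mice with a YFP-tagged Cre driven by Foxp3, and conditional knockout (cKO) libraries from mice that carried the same Cre together with floxed Ikzf1, so that both genotypes express Cre and the deletion is limited to cells that have switched on Foxp3. The cells were YFP+ Treg sorted from CD4+ T cells of individual young, age-matched adult mice. The labels give spleen as their source, and the study's methods name spleen and lymph nodes for T cell purification. They were lysed either directly (ex vivo) or after 4 h of activation by plate-bound anti-CD3 and anti-CD28 antibody, both used at 1 µg/ml (stimulated).

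These receptors are membrane proteins with cysteine-rich repeats in the extracellular part. When a trimeric ligand of the TNF family clusters them, they recruit TNF receptor associated factors (TRAFs) to their cytoplasmic tails and activate NF-kB and MAP kinases, which in T cells promotes survival, division and cytokine production. Treg are known to carry several of them at rest at higher levels than conventional T cells, among them OX40 (Tnfrsf4), GITR (Tnfrsf18) and TNFR2 (Tnfrsf1b), while 4-1BB (Tnfrsf9) is classically induced by the T cell receptor and CD27 is high on naive and central cells.

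The genes sit in a family cluster. Tnfrsf1b, Tnfrsf8, Tnfrsf9, Tnfrsf25, Tnfrsf4 and Tnfrsf18 all lie on chromosome 4 within 10.6 Mb, in the mm9 build that the study used. Tnfrsf4 (ENSMUSG00000029075, chr4:155387952-155390721, plus strand) and Tnfrsf18 (ENSMUSG00000041954, chr4:155400273-155403004, plus strand) are separated by 9.55 kb. Tnfrsf1b (ENSMUSG00000028599, chr4:144803366-144836773, minus strand) and Tnfrsf8 (ENSMUSG00000028602, chr4:144857040-144905067, minus strand) are separated by 20.3 kb. Tnfrsf9 (ENSMUSG00000028965) lies at chr4:150288671-150320211 and Tnfrsf25 (ENSMUSG00000024793) at chr4:151490043-151494228, both on the plus strand. Cd27 (ENSMUSG00000030336) is apart from them, at chr6:125182640-125187028 on the minus strand. Tnfrsf18 is overlapped by the antisense gene Gm16008, and Cd27 by Vamp1 on the other strand. Reads were counted by strand.

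Promoter sequences are shown for 4 of the receptors, the neighbours Tnfrsf4 and Tnfrsf18, which varied together, Tnfrsf9, which rose most on stimulation, and Cd27, which fell most with genotype. They are RefSeq windows (GRCm38.p6) of 300 bases that span an annotated start, most of it upstream, written 5' to 3' on the strand of the gene, with each match to AGGAA, a core bound by Ikaros, in capitals on either strand (TTCCT is its reverse complement). Tnfrsf9 has 2 annotated starts, and the window of the second is shown. The windows are chr4:156013445-156013744 for Tnfrsf4, chr4:156026072-156026371 for Tnfrsf18, chr4:150927749-150928048 for Tnfrsf9 and chr6:125236978-125237277 for Cd27.
Tnfrsf4: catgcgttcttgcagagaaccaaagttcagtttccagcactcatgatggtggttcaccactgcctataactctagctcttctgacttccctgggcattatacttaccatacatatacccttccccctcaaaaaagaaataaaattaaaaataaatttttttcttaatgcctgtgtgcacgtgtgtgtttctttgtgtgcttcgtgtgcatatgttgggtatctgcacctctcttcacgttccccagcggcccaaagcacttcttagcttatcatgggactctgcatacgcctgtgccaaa
Tnfrsf18: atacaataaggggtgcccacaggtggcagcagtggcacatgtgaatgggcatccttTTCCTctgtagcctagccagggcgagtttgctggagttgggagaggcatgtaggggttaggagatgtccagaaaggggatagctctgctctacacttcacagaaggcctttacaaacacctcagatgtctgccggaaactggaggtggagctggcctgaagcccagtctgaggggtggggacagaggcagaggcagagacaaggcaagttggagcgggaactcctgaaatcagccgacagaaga
Tnfrsf9: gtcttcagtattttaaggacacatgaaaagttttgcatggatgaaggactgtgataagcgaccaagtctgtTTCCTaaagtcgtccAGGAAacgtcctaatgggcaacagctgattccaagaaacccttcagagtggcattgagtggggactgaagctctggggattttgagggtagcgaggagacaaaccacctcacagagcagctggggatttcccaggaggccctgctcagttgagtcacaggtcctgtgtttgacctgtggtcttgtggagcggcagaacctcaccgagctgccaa
Cd27: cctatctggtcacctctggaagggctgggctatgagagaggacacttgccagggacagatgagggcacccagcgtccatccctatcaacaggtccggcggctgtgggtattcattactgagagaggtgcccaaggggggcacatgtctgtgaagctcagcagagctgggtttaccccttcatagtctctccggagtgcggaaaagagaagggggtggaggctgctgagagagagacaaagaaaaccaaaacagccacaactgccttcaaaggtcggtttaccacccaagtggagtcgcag
All 7 genes had a window, 9 in all. AGGAA was found in 6 of the 9, against 66.7% of 32851 windows of all genes. The NF-kB core GGGNNNNNCC was found in 6 of 9, against 50.8%, and the AP-1 core TGANTCA in 2 of 9, against 7.81%. Matches to GGGNNNNNCC and its reverse complement can overlap each other. The Tnfrsf9 window shown held both of the latter, with a match GGGGATTTCC that begins 43 bases before the start and TGAGTCA that begins 15 bases before it. The window at its other start held neither. The Tnfrsf4 window held none of the 3 motifs, the Tnfrsf18 window held 1 AGGAA and the Cd27 window only the NF-kB core. A match is a run of letters in a 300-base window and was not tested as a binding site.

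The libraries held 8208659 to 20247649 reads assigned to genes. Values are TPM, a length-normalized measure of transcripts that sums to 1000000 in a library, divided by a trimmed-mean scaling factor for each library, called scaled TPM below, because a single repeat-like gene, Gm10800, took 17.7% to 55.9% of all TPM in a library. Genes that Treg should not use, 1716 olfactory and vomeronasal receptor genes, had a median of 0.726 to 1.18 scaled TPM by group and a 95th percentile of 1.58 to 2.33. Ikzf1 itself was 110 ± 5.55 (SD, n = 3) in WT and 37.9 ± 4.57 in cKO libraries ex vivo, and 68.9 ± 2.24 and 27.8 ± 3.91 after stimulation, with no overlap between the genotypes. Treg markers, 6 genes with Foxp3 among them, were present in every library. Their summed scaled TPM was 1821 to 2070 in WT and 1856 to 2086 in cKO libraries ex vivo, and 1064 to 1196 and 1080 to 1486 after stimulation. As group means Foxp3 and Il2ra were at 106 and 120 in stimulated WT and at 210 and 212 in stimulated cKO Treg. With genotype limma called 0 of the 6 ex vivo and 2 after stimulation, both higher, against 5.29% and 6.92% of all genes. CD8 T cell, NK cell, myeloid and erythroid markers were at 0 to 4.59 scaled TPM apart from Cd8b1. B cell markers were low but moved with genotype: their sum over 3 genes was 6.83 to 11.1 in WT and 13.1 to 14.4 in cKO libraries ex vivo, and 6.30 to 8.38 and 11.1 to 15.1 after stimulation, with Cd79b the highest of them (3.67 to 10.7 as a group mean) and Cd79a and Ms4a1 at 2.99 or below. Their part in the results was not tested. In these bulk samples a change in the share of a cell type and a change of RNA per cell cannot be told apart. Xist was at 179 TPM in WT ex vivo replicate 3 and at 1.36 or less in every other library, and cKO stimulated replicate 3 had the fewest reads and the most Gm10800, so calls of the genes named that ended without either library are given with that value. Left unscaled, TPM shifted the median gene by 0.22, -0.26, 0.18 and -0.30 on the log2 scale in the genotype comparisons ex vivo and stimulated and the stimulation comparisons in WT and cKO. The share of calls that were higher was then 95.2%, 22.5%, 60.5% and 11.9%, against 68.5%, 47.7%, 39.6% and 39.5% with scaling. A lower filter of 1 TPM, used as an alternative, also shifted the median gene, by -0.02, -0.28, -0.24 and -0.49 in those comparisons.

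Of the stimulation genes, Egr2 and Irf4, transcription factors induced by the T cell receptor, rose in both genotypes, by 1.48 and 1.56 on the log2 scale in WT and by 1.31 and 0.95 in cKO Treg (limma, adjusted p = 5.12e-05, 1.53e-05, 9.23e-05 and 0.000302). Cd69 fell by 1.36 and by 1.71 (limma, adjusted p = 0.000517 and 9.43e-05), from ex vivo means of 388 and 330 scaled TPM, and with quantile normalization by 0.61 and by 0.99. With a filter of 1 TPM the cKO changes of Egr2 and Irf4 were 0.77 and 0.41 and did not pass (limma, adjusted p = 0.0598 and 0.341). Nr4a1 differed between stimulated and ex vivo WT Treg by -0.55 (limma, adjusted p = 0.0308, but 0.109 without WT ex vivo replicate 3 and a change of sign under quantile normalization), and Egr1 fell in cKO Treg by 0.69 (limma, adjusted p = 0.0404, a call kept in 5 of 12 fits without 1 library and at 0.182 without cKO stimulated replicate 3, with a change of -0.043 under quantile normalization).

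In WT Treg ex vivo Tnfrsf4 was the most abundant of the 7 receptors, at 248 ± 30.3 scaled TPM (SD, n = 3), and made up 39.1% of their sum. TPM is already per length, so genes may be compared. Tnfrsf1b at 104 ± 3.19, Tnfrsf18 at 96.1 ± 10.2 and Cd27 at 91.9 ± 9.56 followed, and neighbours in this order overlapped between libraries. Tnfrsf9 at 53.9 ± 6.36, Tnfrsf25 at 28.2 ± 2.54 and Tnfrsf8 at 10.8 ± 1.48 were lower, each without overlap with the one above. The order changed with the groups. Tnfrsf9 was the fifth in WT and the fourth in cKO Treg ex vivo, where it overlapped with Cd27. After stimulation it was the second in both genotypes and overlapped with Tnfrsf1b in WT and with Tnfrsf4 in cKO libraries. Cd27 was the fourth in WT Treg ex vivo and the fifth in the other groups. In stimulated cKO Treg Tnfrsf4 held 42.8% of the sum, Tnfrsf9 26.9% and Cd27 4.54%. Tnfrsf4 stayed first and Tnfrsf8 last in all 4 groups.

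**Figure D1:**
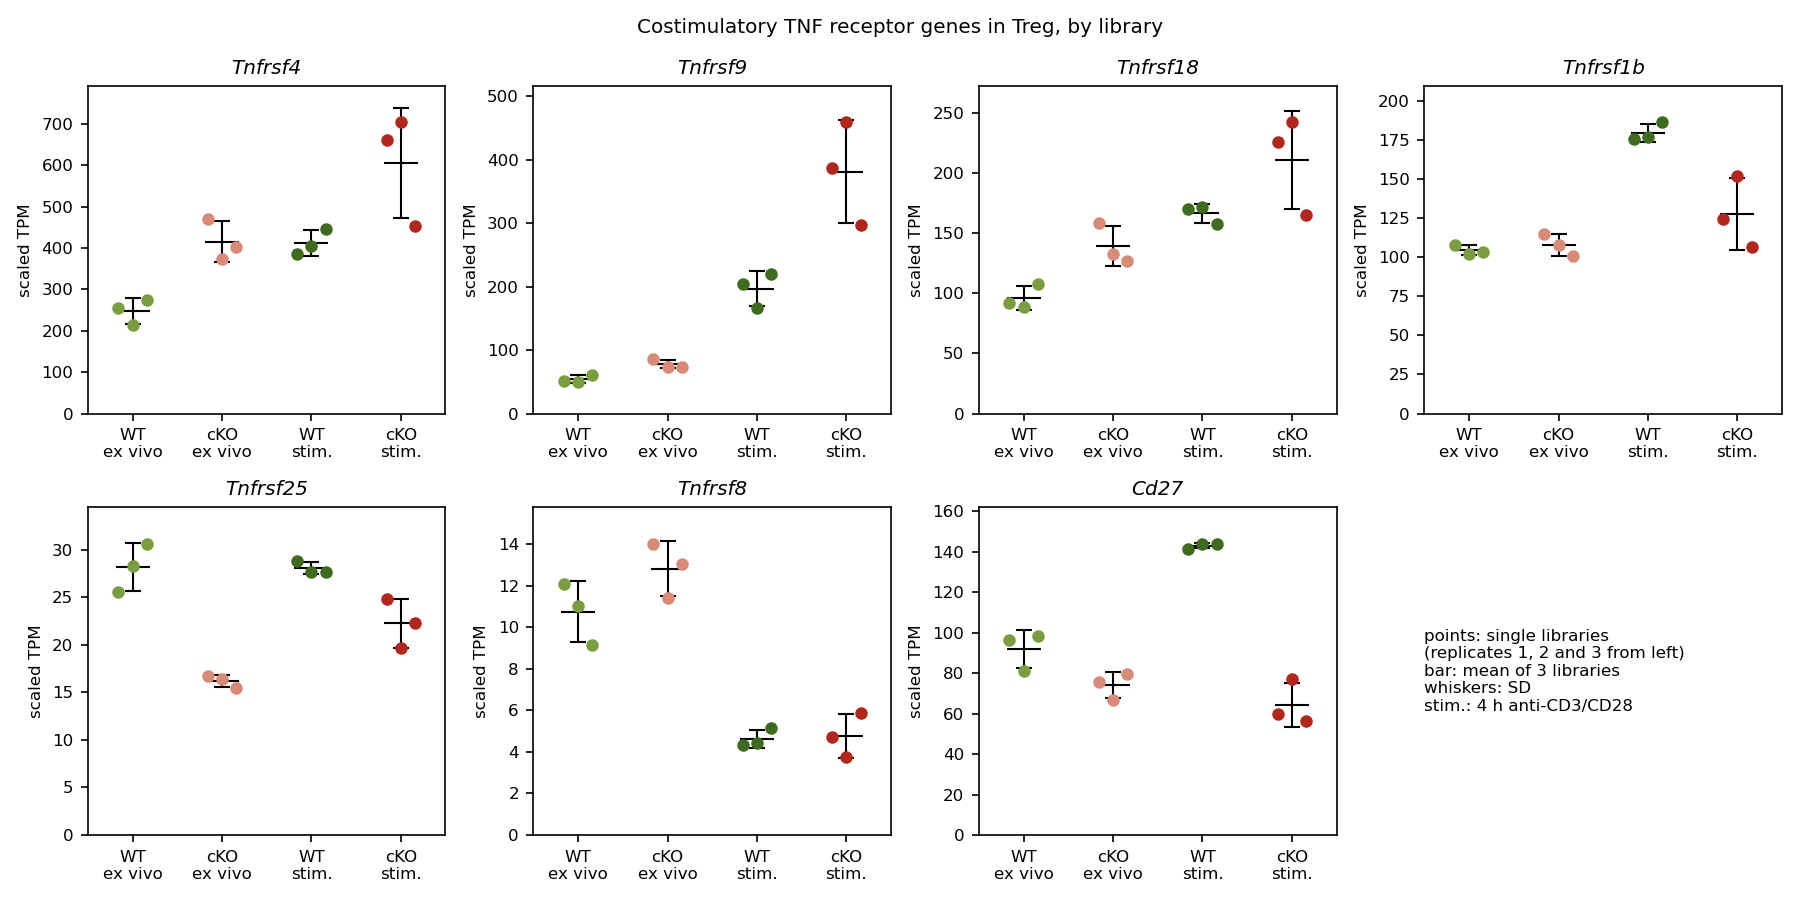
Scaled TPM (vertical axes, each from 0) of the 7 receptor genes in the 4 groups, with 1 point for each library, bars for the mean of 3 and whiskers for the SD. Tnfrsf9 reached 298 to 459 in stimulated cKO libraries against 49.1 to 61.1 in WT libraries ex vivo, while Cd27 stood at 141 to 144 in stimulated WT libraries and at 56.4 to 76.9 in stimulated cKO libraries.

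The first comparison asks how Treg without Ikaros differ at rest. Ex vivo, Tnfrsf4 rose and Tnfrsf25 fell, and the other 5 receptors did not pass the test. Over all genes 5.29% were called here at an adjusted p under 0.05, 3.62% higher and 1.67% lower (limma with Benjamini-Hochberg adjustment). The median change of the 7 was 0.24 on the log2 scale, beside -0.01 over all genes tested. In 3 receptors every cKO library was above every WT library and in 2 every cKO library was below, against 21.5% of all genes without overlap (11.6% higher and 9.96% lower).

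Tnfrsf4, whose product OX40 binds OX40L and opposes Foxp3-dependent suppression in several settings, was at 255, 215 and 274 scaled TPM in WT libraries and at 471, 373 and 403 in cKO libraries. All cKO libraries were higher. The change was 0.74 ± 0.17 (SE), a 1.68-fold difference on the log2(scaled TPM + 1) scale, with an adjusted p of 0.0296 by limma. The study named this gene from the same samples, so its direction is not independent evidence. The call was fragile: it was kept in 6 of the 12 refits without 1 library, and the adjusted p was 0.0515 without WT ex vivo replicate 3 and 0.119 without cKO ex vivo replicate 1. With replicate number as a block it was also lost (limma, adjusted p = 0.062). Over all 21 alternatives the adjusted p ran from 0.00114 to 0.691 while the change stayed between 0.65 and 0.98. With a filter of 1 TPM in place of 5 the change was 0.73, but its SE was 0.315.

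Tnfrsf18, the GITR gene 9.55 kb downstream, was at 91.7, 88.8 and 108 in WT and at 158, 133 and 127 in cKO libraries. Tnfrsf9, which encodes 4-1BB, was at 51.4, 49.1 and 61.1 in WT and at 85.1, 73.7 and 74.0 in cKO libraries. Both sets were without overlap, with changes of 0.53 ± 0.15 and 0.52 ± 0.16. Neither passed the test across all genes (limma, adjusted p = 0.0638 and 0.101), and both passed with quantile normalization or with voom on recovered reads. Their 95% intervals, 0.21 to 0.85 and 0.16 to 0.88, overlapped that of Tnfrsf4, 0.37 to 1.12. Without cKO stimulated replicate 3 the change of Tnfrsf18 was 0.52 and passed (limma, adjusted p = 0.0245). By flow cytometry the study found GITR protein at a normal level on Treg without Ikaros, a measure of protein and not of RNA.

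Tnfrsf25 encodes DR3, a death domain receptor for TL1A through which Treg can be expanded. It was at 25.6, 28.3 and 30.6 in WT and at 16.7, 16.4 and 15.5 scaled TPM in cKO libraries. The groups were far apart, with a change of -0.76 ± 0.094, 1.69-fold lower in cKO, and an adjusted p of 0.00148 by limma. The call held in all 12 fits without 1 library (adjusted p at most 0.0103) and was lost with TPM as deposited and with the filters of 1 TPM or none, where the adjusted p was at most 0.214. Cd27, the receptor for CD70, was at 96.4, 80.9 and 98.3 in WT and at 75.9, 66.8 and 79.5 in cKO libraries. Its cKO libraries were all lower on the scaled values but overlapped with WT in TPM as deposited, and the change of -0.31 ± 0.12 did not pass (limma, adjusted p = 0.215). Tnfrsf1b was at 102 to 108 in WT and 101 to 115 in cKO libraries, and its change had a 95% interval from -0.21 to 0.30. Tnfrsf8, which encodes CD30, was at 9.17 to 12.1 and 11.4 to 14.0, with an interval from -0.09 to 0.56.

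After stimulation the same comparison asks what the loss of Ikaros changes in activated Treg. Cd27 and Tnfrsf1b fell and Tnfrsf9 rose in cKO relative to WT, 3 of the 7 receptors, where 6.92% of all genes were called (3.3% higher and 3.62% lower). The median of the 7 was 0.03, beside -0.03 over all genes. Every cKO library was above every WT library in 2 receptors and below in 3, against 30.8% of all genes (12.8% higher and 18% lower).

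Cd27 had the largest fall of the 7. Its stimulated WT libraries were at 141, 144 and 144 scaled TPM and its stimulated cKO libraries at 59.9, 76.9 and 56.4. The highest cKO library was thus well below the lowest WT library. The change was -1.15 ± 0.12, a 2.22-fold lower level in cKO, with an adjusted p of 0.000391 by limma. It was called in all 12 fits without 1 library (adjusted p at most 0.00342) and in 7 of 9 other alternatives. The filters of 1 TPM and none gave changes as large as -1.45 with an adjusted p of at most 0.0662. The study lists Cd27 from these same samples.

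Tnfrsf9 was at 204, 166 and 221 in stimulated WT and at 387, 459 and 298 in stimulated cKO libraries. All cKO libraries were higher on the scaled values, although TPM as deposited overlapped. The change was 0.94 ± 0.16, 1.91-fold, with an adjusted p of 0.00635 by limma, and the call held in all 12 fits without 1 library and was lost with TPM as deposited and both lower filters (adjusted p at most 0.373).

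Tnfrsf1b encodes TNFR2, the receptor through which TNF expands Treg. Its libraries were at 176, 177 and 186 in stimulated WT and at 125, 152 and 107 in stimulated cKO Treg. There was no overlap, and the change of -0.50 ± 0.12 passed with an adjusted p of 0.0261 by limma. It held in 7 of 12 fits without 1 library, with an adjusted p of 0.0848 without cKO stimulated replicate 3 and of 0.0976 without WT stimulated replicate 3. The call was also lost with TPM as deposited and with the filters of 1 TPM and none, where the changes were -0.79, -0.81 and -0.80 (limma, adjusted p = 0.0922, 0.264 and 0.274).

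Tnfrsf4 and Tnfrsf18 did not pass after stimulation, and 1 library bore on that. Tnfrsf4 was at 385, 404 and 446 in WT and at 660, 703 and 454 in cKO libraries, a change of 0.53 ± 0.17 (limma, adjusted p = 0.0881). Tnfrsf18 was at 170, 172 and 158 in WT and at 226, 242 and 165 in cKO libraries, 0.32 ± 0.15 (limma, adjusted p = 0.21). In both genes cKO stimulated replicate 3 lay next to the WT libraries. Without it the changes were 0.76 and 0.52 and both passed (limma, adjusted p = 0.014 and 0.0422), while without cKO stimulated replicate 2 they were 0.38 and 0.19 (limma, adjusted p = 0.195 and 0.436). With TPM as deposited they were 0.24 and 0.03, with overlap (limma, adjusted p = 0.556 and 0.94), and with quantile normalization 0.69 and 0.52 (limma, adjusted p = 0.00209 and 0.0118). Tnfrsf25 was at 28.8, 27.7 and 27.7 in WT and at 24.8, 19.6 and 22.3 in cKO libraries, all lower, with a change of -0.33 ± 0.094 that missed the threshold (limma, adjusted p = 0.0618). Tnfrsf8 was at 4.32 to 5.14 and 3.75 to 5.85, with a 95% interval from -0.30 to 0.35.

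**Figure D2:**
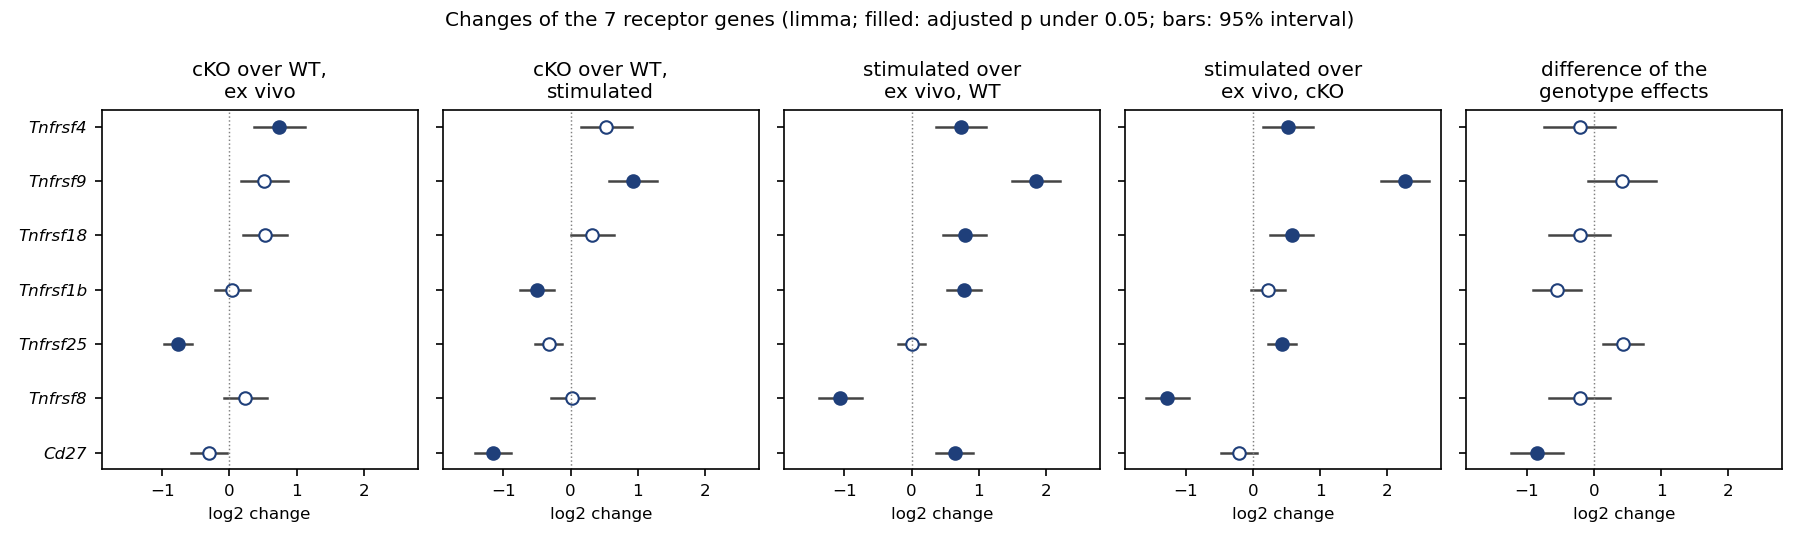
Log2 changes of the 7 receptor genes (horizontal axes) in the 4 comparisons and in the difference of the genotype effects, with 95% intervals from limma and filled points at an adjusted p under 0.05. Tnfrsf9 has the largest rise on stimulation, 1.85 in WT and 2.26 in cKO, and Cd27 the largest fall with genotype, -1.15 after stimulation.

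The stimulation comparisons ask which receptors 4 h of CD3 and CD28 antibodies change. In WT Treg 5 receptors rose and 1 fell, with 32% of all genes called (12.7% higher and 19.3% lower). The median of the 7 was 0.73, beside 0.00 over all genes. In cKO Treg 4 rose and 1 fell, with 43.8% of all genes called (17.3% higher and 26.5% lower) and a median of 0.43, beside -0.01. The libraries did not overlap for 5 receptors that were higher and 1 that was lower in WT, against 47.5% of all genes (21.1% higher and 26.3% lower). In cKO these were 3 and 1 receptors, against 53.5% (22.9% higher and 30.7% lower). The comparisons in WT and cKO share no library with each other, but each shares its libraries with the genotype comparisons above.

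Tnfrsf9 rose most. It went from 49.1 to 61.1 ex vivo up to 166 to 221 after stimulation in WT libraries and from 73.7 to 85.1 up to 298 to 459 in cKO libraries, 3.60-fold and 4.80-fold. The changes of 1.85 ± 0.16 and 2.26 ± 0.16 passed under every alternative tried (limma, adjusted p = 1.72e-05 and 3.65e-06, at most 0.00991 and 0.00301). Its genotype effect did not differ detectably between the conditions, with a difference of 0.41 and a 95% interval from -0.09 to 0.92 (limma, adjusted p = 0.43).

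Tnfrsf8 was the receptor that fell on stimulation in both genotypes. CD30 RNA fell from 12.1, 11.0 and 9.17 ex vivo to 4.32, 4.41 and 5.14 scaled TPM after stimulation in WT, and from 14.0, 11.4 and 13.0 to 4.74, 3.75 and 5.85 in cKO libraries. No stimulated library reached an ex vivo library of its genotype. The changes of -1.06 ± 0.15 and -1.27 ± 0.15 passed under every alternative (limma, adjusted p = 0.000307 and 7.83e-05, at most 0.0106 and 0.00219). The stimulated libraries held only 96 to 183 reads of this gene.

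Tnfrsf18 and Tnfrsf4 rose in both genotypes. Tnfrsf18 changed by 0.79 ± 0.15 in WT and 0.58 ± 0.15 in cKO (limma, adjusted p = 0.00199 and 0.00898), and Tnfrsf4 by 0.73 ± 0.17 and 0.52 ± 0.17 (limma, adjusted p = 0.00717 and 0.0285). The WT groups did not overlap for either gene. In cKO the lowest stimulated Tnfrsf4 library, replicate 3 at 454, lay under the highest ex vivo library at 471, and the call was lost in 4 of the 12 fits without 1 library, and the adjusted p was 0.133 without cKO stimulated replicate 2. With a filter of 1 TPM the cKO changes of Tnfrsf4 and Tnfrsf18 were -0.03 and 0.03 (limma, adjusted p = 0.966 and 0.949), and the calls of both genes in WT were also lost (limma, adjusted p = 0.467 and 0.331). That setting shifted the median gene by -0.49 in cKO and by -0.24 in WT. With TPM as deposited the cKO changes were 0.19 and 0.25 and did not pass (limma, adjusted p = 0.61 and 0.448).

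Cd27 and Tnfrsf1b rose in WT Treg, from 80.9 to 98.3 up to 141 to 144 for Cd27 and from 102 to 108 up to 176 to 186 for Tnfrsf1b. The changes were 0.64 ± 0.12 and 0.78 ± 0.12 (limma, adjusted p = 0.00256 and 0.000511), without overlap, and held in all 12 fits without 1 library, though not with the filters of 1 TPM and none (adjusted p up to 0.489 and 0.288). In cKO Treg neither passed. Cd27 was at 66.8 to 79.5 ex vivo and 56.4 to 76.9 after stimulation, a change of -0.21 ± 0.12 (limma, adjusted p = 0.189), and Tnfrsf1b changed by 0.23 ± 0.12 (limma, adjusted p = 0.129, but 0.0131 without cKO stimulated replicate 3). Cd27 was lower without overlap in TPM as deposited. It was higher by 0.33 under quantile normalization, where it was called (limma, adjusted p = 0.00235), so its direction in cKO depends on the scaling. That of Tnfrsf1b did too, at -0.10 with TPM as deposited, -0.32 with a filter of 1 TPM and 0.93 with quantile normalization, where it was called (limma, adjusted p = 1.34e-05). In these 3 settings the median gene shifted by -0.30, -0.49 and -0.05 in this comparison.

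A gene that passes in one genotype and not in the other need not differ between them, so the difference of the genotype effects was tested directly. Cd27 alone of the 7 was called, where 1.1% of all genes were (0.451% higher and 0.653% lower), with a difference of -0.85 ± 0.17 (limma, adjusted p = 0.0488). This call was marginal: it held in 2 of 12 fits without 1 library (adjusted p up to 0.139, with 0.0893 without WT ex vivo replicate 3 and 0.109 without cKO stimulated replicate 3) and in 2 of 8 other alternatives. Tnfrsf1b had a difference of -0.55 and an interval from -0.91 to -0.19 (limma, adjusted p = 0.146, but 0.0359 without cKO stimulated replicate 2). Tnfrsf25 had the opposite sign, 0.43 with an interval from 0.14 to 0.72 (limma, adjusted p = 0.156). It rose on stimulation in cKO by 0.43 ± 0.094 (limma, adjusted p = 0.00434) from its lowered ex vivo level. In WT its change had an interval from -0.21 to 0.21. With the filters of 1 TPM and none the cKO change of Tnfrsf25 was -0.09 and -0.08 (limma, adjusted p = 0.761 and 0.797), where the median gene shifted by -0.49 and -0.48. Its call was also lost with TPM as deposited, where the libraries overlapped.

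Ratios of 2 receptors within a library do not depend on a scaling factor given to the whole library, though quantile normalization can change them. They were chosen after the values above were seen, so no test is given. Tnfrsf9 over Cd27 was 0.587 ± 0.0476 (SD, n = 3) in WT and 1.05 ± 0.105 in cKO Treg ex vivo, and 1.38 ± 0.198 and 5.90 ± 0.593 after stimulation. The lowest stimulated cKO library, at 5.28, was above the highest stimulated WT library at 1.53. Tnfrsf4 over Cd27 was 2.69 ± 0.0816 and 2.88 ± 0.198 in WT Treg ex vivo and stimulated, and 5.62 ± 0.572 and 9.41 ± 1.50 in cKO Treg. Tnfrsf4 over its neighbour Tnfrsf18 was 2.58 ± 0.182 in WT and 2.99 ± 0.183 in cKO Treg ex vivo, where the lowest cKO library, at 2.81, was above the highest WT library at 2.77. After stimulation it was 2.48 ± 0.303 and 2.86 ± 0.0919, with overlap. In cKO stimulated replicate 3, where several receptors were lower than in the other replicates, these ratios were 5.28, 8.05 and 2.76.

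**Figure D3:**
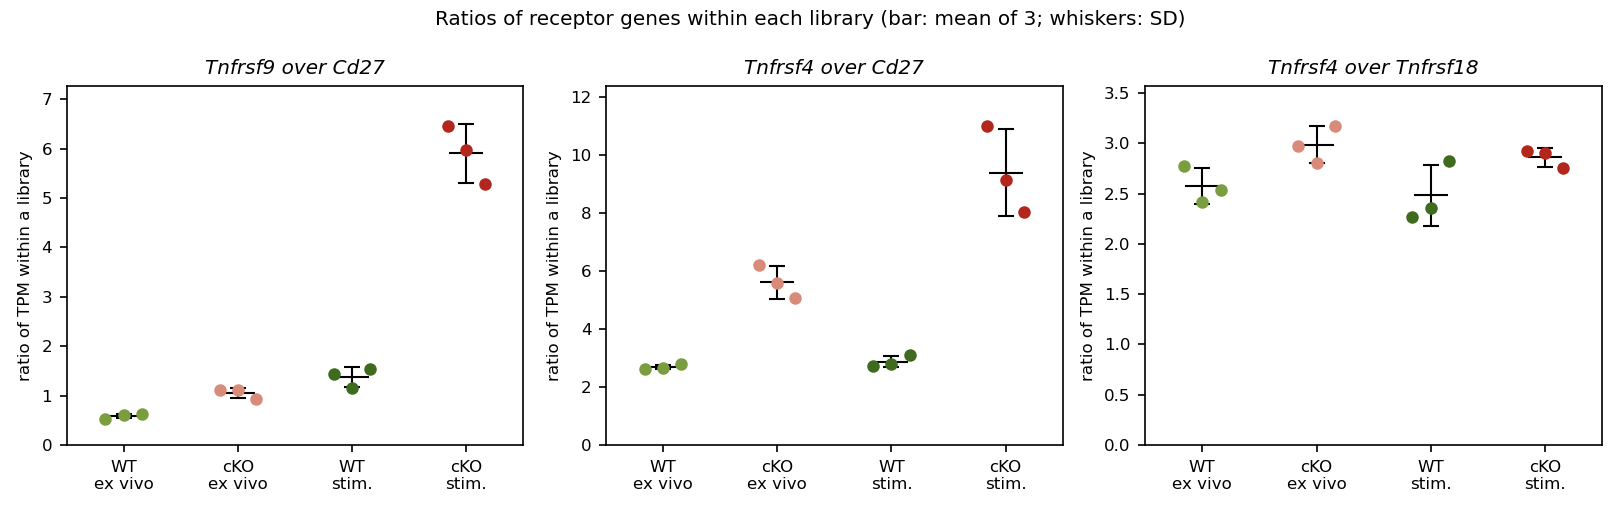
Ratio of the TPM of 2 receptor genes within each library (vertical axes from 0), with 1 point for each library, bars for the mean of 3 and whiskers for the SD. Tnfrsf9 over Cd27 is 5.28 to 6.46 in stimulated cKO libraries and 1.16 to 1.53 in stimulated WT libraries, while Tnfrsf4 over Tnfrsf18 is 2.81 to 3.17 in cKO and 2.42 to 2.77 in WT libraries ex vivo.

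The receptors also differed in which of them varied together. Over the 12 libraries, which share 4 group means, log2 scaled TPM of Tnfrsf4 and Tnfrsf18 had a Pearson r of 0.958, Tnfrsf9 and Tnfrsf18 of 0.922, and Tnfrsf1b and Cd27 of 0.723. Tnfrsf9 and Tnfrsf8 had r of -0.88, and Cd27 and Tnfrsf4 of -0.25. Among all genes of at least 5 TPM the pattern most like that of Tnfrsf4 was Plagl2 (r = 0.970), followed by Fam129a and then Tnfrsf18 itself. For Tnfrsf18 it was Ikzf4 (0.985), which encodes the Ikaros relative Eos, then Pmepa1 and Irf4. For Tnfrsf9 it was Fbxl19 (0.993), then Stat3 and Cd200. For Tnfrsf8 it was Zbtb20 (0.984), then Trerf1 and 4632434I11Rik. For Cd27 it was 4632428N05Rik (0.951), then Lipa and Ttc3. Tnfrsf1b followed 5430405H02Rik, Akirin1 and Nfya (0.955 to 0.949), and Tnfrsf25 followed Tmem206, Prkd3 and Plekha1 (0.920 to 0.891).

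The ligands of these receptors were also read in the Treg themselves. Of 8 ligand genes 5 were high enough to test. Ex vivo, 4 of the 5 rose in cKO, where 5.29% of all genes were called, with a median of 0.93 beside -0.01 over all genes. After stimulation 2 of 5 rose, where 6.92% of all genes were called, with a median of 0.27 beside -0.03. Tnfsf4, the OX40 ligand, was at 3.46, 2.78 and 4.05 scaled TPM in WT and at 12.7, 7.80 and 7.97 in cKO libraries ex vivo, an increase of 1.22 ± 0.22 (limma, adjusted p = 0.00922). The study lists it from these samples. Tnfsf9, the 4-1BB ligand, was at 3.23, 2.52 and 4.55 in WT and at 7.38, 9.37 and 7.43 in cKO libraries, 1.05 ± 0.19 (limma, adjusted p = 0.00881). Tnfsf8, the CD30 ligand, was the most abundant ligand, at 134, 111 and 106 in WT and 245, 199 and 220 in cKO libraries, 0.92 ± 0.15 (limma, adjusted p = 0.00637). Tnf, whose product binds TNFR2, was at 38.0, 42.2 and 49.2 in WT and 74.2, 80.8 and 94.1 in cKO libraries, 0.93 ± 0.14 (limma, adjusted p = 0.00366). None of these 4 overlapped between genotypes ex vivo, against 21.5% of all genes without overlap, and each call held in all 12 fits without 1 library. Each was lost with the filters of 1 TPM and none, where the adjusted p reached 0.143, 0.239, 0.396 and 0.253.

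After stimulation Tnf was again higher in cKO, 72.3, 62.9 and 52.3 against 36.8, 38.0 and 41.8 in WT (limma, 0.66 ± 0.14, adjusted p = 0.0161, and 0.0696 without WT stimulated replicate 2). With TPM as deposited the libraries overlapped and the change was 0.38, and with a filter of 1 TPM it was 0.36, neither of which passed (limma, adjusted p = 0.297 and 0.51). Lta, lymphotoxin alpha, did not differ ex vivo on the test, at 48.3 to 65.9 in WT and 45.1 to 57.0 in cKO libraries. It fell on stimulation to 15.9, 15.2 and 16.9 in WT but to 44.4, 33.9 and 28.6 in cKO libraries, falls of 1.69 and of 0.54 (limma, adjusted p = 2.97e-05 and 0.0221). The fall in cKO was 0.35 without cKO stimulated replicate 3 and 0.12 with quantile normalization, and its call was lost in both (limma, adjusted p = 0.127 and 0.572). Lta was higher in cKO by 1.08 ± 0.16 after stimulation (limma, adjusted p = 0.00298), a call lost with TPM as deposited (0.80) and with a filter of 1 TPM (0.79; limma, adjusted p = 0.11 and 0.282). The difference of its genotype effects was 1.16 ± 0.23 (limma, adjusted p = 0.0442), a call that held in 1 of 12 fits without 1 library and was at 0.0799 without WT ex vivo replicate 3. In WT Treg Tnfsf4, Tnfsf9 and Tnfsf8 rose on stimulation by 0.69, 1.38 and 0.79 (limma, adjusted p = 0.0323, 0.000249 and 0.00254), and in cKO Treg Tnfsf9 rose by 0.60 and Tnf fell by 0.41 (limma, adjusted p = 0.0231 and 0.032). Of these, the calls of Tnfsf4 in WT and of Tnfsf9 and Tnf in cKO were lost in 4, 3 and 3 of the 12 fits without 1 library, with adjusted p up to 0.131 (without WT stimulated replicate 2), 0.101 (without cKO stimulated replicate 2) and 0.18 (without cKO stimulated replicate 3), and the change of Tnf was 0.12 under quantile normalization. With a filter of 1 TPM the changes of Tnfsf4 and Tnfsf8 in WT and of Tnfsf9 in cKO were 0.48, 0.53 and 0.11 and did not pass (limma, adjusted p = 0.374, 0.34 and 0.825). Tnfsf18, Tnfsf15 and Cd70, the ligands of GITR, DR3 and CD27, had group means of 1.06 to 3.05 scaled TPM and were not tested. Their highest library, cKO stimulated replicate 3 for Tnfsf15, reached 4.20, where the 95th percentile of the olfactory and vomeronasal genes was 2.33. Tnfsf15 was at 2.88, 2.58 and 2.61 in cKO and at 0.965, 1.87 and 1.40 in WT libraries ex vivo, without overlap, beside 95th percentiles of 1.58 and 1.68.

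**Figure D4:**
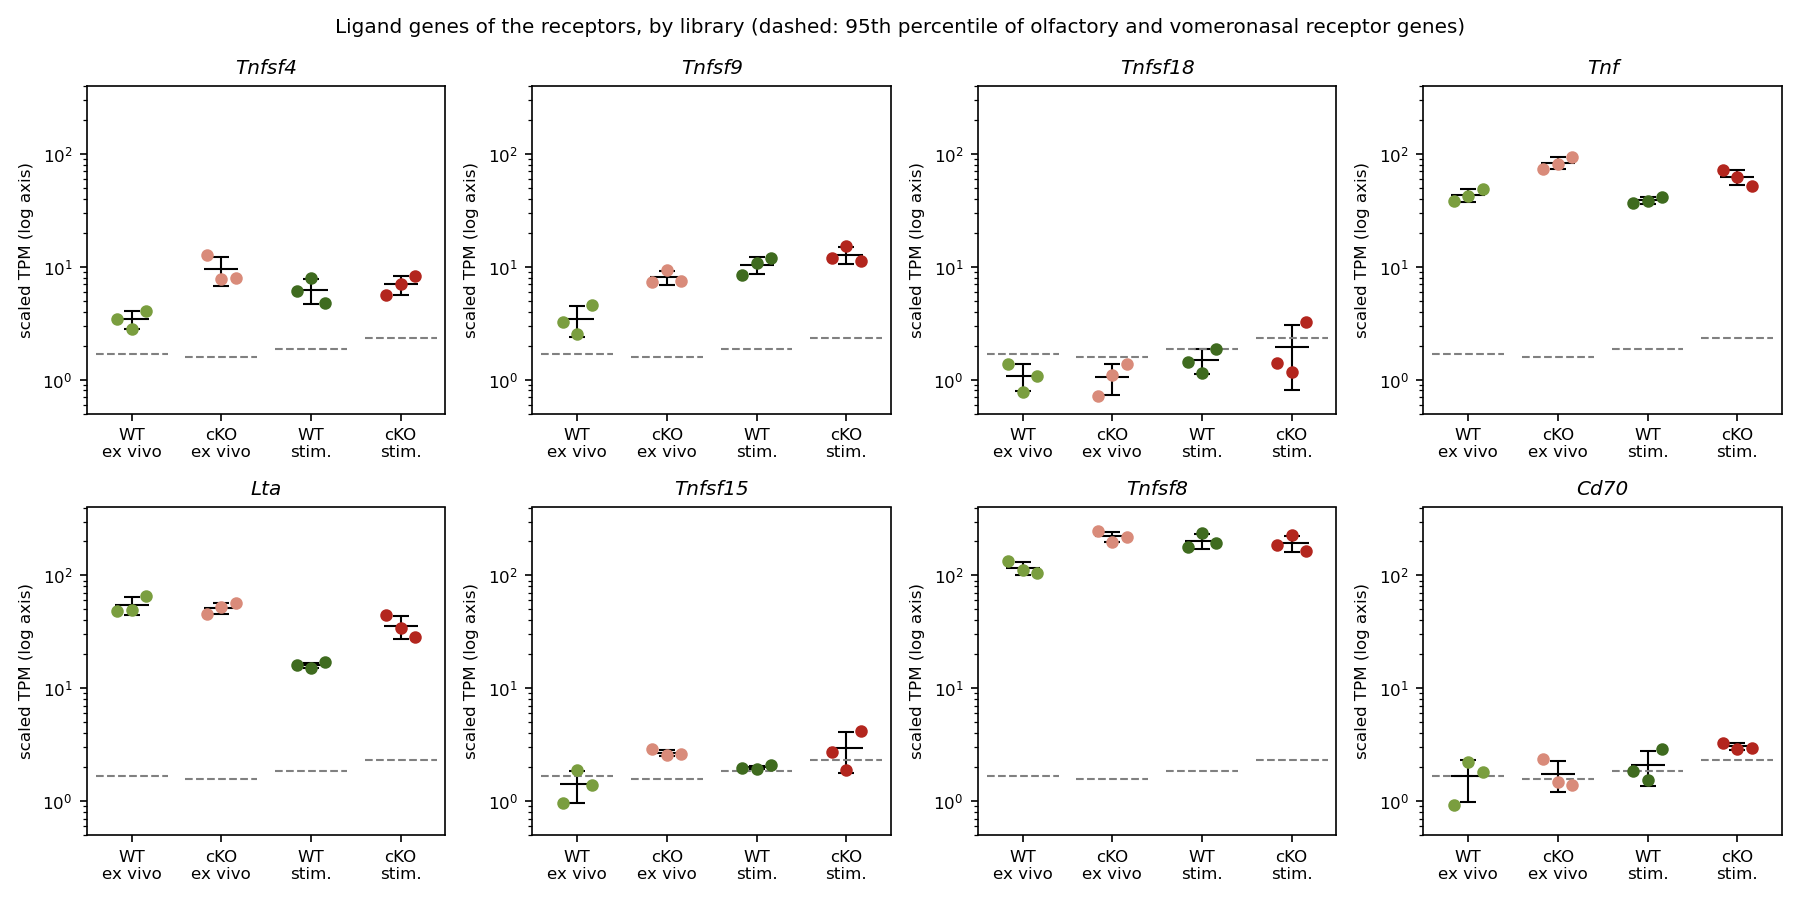
Scaled TPM (log axes) of the 8 ligand genes by library, with bars for the mean of 3, whiskers for the SD and dashed lines for the 95th percentile of 1716 olfactory and vomeronasal receptor genes. Tnfsf8, Tnf and Lta stand well above the dashed lines, and Tnfsf18, Tnfsf15 and Cd70 lie nearer to them.

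Of 21 other TNF receptor superfamily genes 9 were tested, and 0 were called by limma with genotype ex vivo, with genotype after stimulation or in the difference of the effects. At an unadjusted p under 0.05 these numbers were 1, 2 and 0, and with voom on recovered reads 0, 1 and 0 were called. On stimulation 1 rose and 2 fell in WT, Tnfrsf14 (HVEM) by 0.40 and Tnfrsf10b (the TRAIL receptor) and Tnfrsf12a (Fn14) by -0.86 and -0.72 (limma, adjusted p = 0.0117, 0.00137 and 0.00835), and 2 rose and 3 fell in cKO, with the largest falls in Tnfrsf10b, Tnfrsf26 and Tnfrsf12a at -1.03, -0.63 and -0.55 (limma, adjusted p = 0.000354, 0.00954 and 0.0241). These 3 and 5 of 9 stand beside 32% and 43.8% of all genes called. With TPM as deposited none of the 3 in WT passed (limma, adjusted p = 0.0833, 0.0509 and 0.0677). Of 13 adaptor genes all were tested, and 1 was called ex vivo and 2 after stimulation, beside 5.29% and 6.92% of all genes. The 1 called ex vivo was Map3k14, the kinase of the noncanonical NF-kB pathway, at -0.55 in cKO (limma, adjusted p = 0.0234, but 0.0979 without cKO ex vivo replicate 3 and 0.0721 without WT ex vivo replicate 3). After stimulation Traf1, an adaptor of OX40, 4-1BB and TNFR2, fell by 0.71 in cKO and Ripk1 rose by 0.41 (limma, adjusted p = 0.00341 and 0.0326, the latter up to 0.123 without WT stimulated replicate 2). All 3 of these adaptor calls were lost with a filter of 1 TPM (limma, adjusted p = 0.662, 0.164 and 0.827), and with TPM as deposited Map3k14 was at -0.33 and Ripk1 at 0.15 (limma, adjusted p = 0.497 and 0.635). Birc2 (cIAP1) fell on stimulation by 1.11 in WT and by 1.59 in cKO, Traf5 fell by 0.60 and by 0.68, and Map3k14 rose by 0.67 and by 0.81 (limma, adjusted p = 0.000121, 9.12e-06, 0.00283, 0.00115, 0.00157 and 0.000399), with the rises of Map3k14 at 0.42 and 0.29 and not passing under a filter of 1 TPM (limma, adjusted p = 0.38 and 0.465). The fall of Traf5 in WT was lost with TPM as deposited, at -0.41, and with the filters of 1 TPM and none (limma, adjusted p = 0.163, 0.0618 and 0.0695).

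NF-kB subunits and targets, the genes downstream of these receptors, were called in 4 of 15 tested ex vivo, all higher in cKO, against 5.29% of all genes, with a median of 0.47 beside -0.01. At an unadjusted p under 0.05 there were 11, and with voom on recovered reads 8 were called. After stimulation limma called 0 of 15, against 6.92% of all genes, with a median of -0.20 beside -0.03 (3 at an unadjusted p under 0.05, 1 with voom on recovered reads). Nfkbie and Nfkbia, inhibitors that NF-kB itself induces, and Rel were higher by 0.94, 0.89 and 0.71 ex vivo (limma, adjusted p = 0.00494, 0.0056 and 0.0224, that of Rel 0.093 without cKO ex vivo replicate 1 and 0.0853 without WT ex vivo replicate 3). With a filter of 1 TPM none of these 3 passed (limma, adjusted p = 0.364, 0.445 and 0.642), and with TPM as deposited Rel did not (limma, adjusted p = 0.0683). On stimulation Nfkbia and Tnfaip3 (A20), which restrain NF-kB, fell by 1.07 and by 1.74 in WT and by 2.04 and by 1.94 in cKO, and Nfkbid rose by 1.38 in WT (limma, adjusted p = 0.00024, 1.39e-05, 3.35e-06, 5e-06 and 2.28e-05). With quantile normalization the WT falls of Nfkbia and Tnfaip3 were 0.19 and 0.88, and that of Nfkbia did not pass (limma, adjusted p = 0.111). Nfkbie fell by 1.88 in cKO (limma, adjusted p = 5.92e-06). The genotype effects of Nfkbie, Nfkbia and Relb differed between the conditions, by -1.25, -0.98 and -0.89 (limma, adjusted p = 0.0192, 0.0496 and 0.043). These calls held in 5, 2 and 3 of the 12 fits without 1 library. Without WT ex vivo replicate 3 the adjusted p were 0.0577, 0.0624 and 0.0991, and without cKO stimulated replicate 3 those of Nfkbia and Relb were 0.107 and 0.0899.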

How the data were processed

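RNA of Treg sorted from individual mice was depleted of ribosomal RNA, made into strand-specific libraries and sequenced in pairs of 51-base reads. Per the labels and the study's methods, the authors aligned reads to mm9 with STAR 2.6.0c and counted them with HTSeq 0.6.1 on the reverse strand over Ensembl exons. The deposited table gives TPM, a length-normalized signal that sums to 1000000 in each library, and the same values as log2, for 36222 genes. The authors' table of fold changes and p-values for pairs of groups was not used.

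TPM were scaled by trimmed means of M-values (30% and 5% trimmed), genes were kept where the mean of some group reached 5 TPM (13318), and log2(scaled TPM + 1) was fitted over all 12 libraries by group in limma 3.58.1 (R 4.3.3) with a mean-variance trend, two-sided, with Benjamini-Hochberg adjustment over all genes tested and a threshold of 0.05. Intervals are 95%. Since log2 of TPM carries an offset of 1 read, whole reads were recovered for 99.998% of values (within 0.01) and used for depths and for a voom alternative. The fit was tested on simulated data drawn from a common mean profile for all libraries, apart from genes given known changes. The share of Gm10800 did not differ between groups there, so the scaling was not put to that test. Alternatives were a filter of 1 TPM, none, a pseudocount of 0.1, TPM as deposited, median-of-ratios scaling, quantile normalization, only the groups compared, replicate number as a block, voom, and each library left out.

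Members and gene lists (ligands, other receptors, adaptors, NF-kB genes, markers) were chosen with earlier results of these data known. All members and ligands were named, the 3 largest called changes of each other pathway list, Ikzf1 and 5 stimulation genes, the 3 genes most like each member, and the nearest genes of at least 5 TPM around neighbouring members. 1 marker gene is not reported here.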

Additional observations from a re-analysis of the deposited data

Results flagged for a closer look

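The effect of genotype differed between ex vivo and stimulated Treg, by a test of the difference itself (limma, adjusted p under 0.05), in 1 of 7 receptors, 1 of 5 ligands tested and 3 of 15 NF-kB genes tested, where 1.1% of all genes were called. For Cd27 the difference was -0.85 on the log2 scale, from -0.31 ex vivo to -1.15 after stimulation. For Lta it was 1.16. For the NF-kB genes Nfkbie, Nfkbia and Relb it was -1.25, -0.98 and -0.89. Each adjusted p lay between 0.0192 and 0.0496, and each call was lost in 7 or more of the 12 fits that left out 1 library and with the replicate block, while no direction changed in any of the 20 alternatives.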

How the results depend on the processing

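Of 308 member results refitted on all libraries 245 kept their direction and side of the threshold, and of 420 refits without 1 library 380 did. The main limit was the filter. With a filter of 1 TPM and with none the median gene shifted too, by -0.02 and 0.004 with genotype ex vivo and by -0.28 and -0.27 after stimulation. On stimulation the shifts were -0.24 and -0.21 in WT and -0.49 and -0.48 in cKO. How much of the filter's effect came with this shift was not tested. Members called were 2, 3, 6, 5 and 1 (genotype ex vivo, genotype stimulated, stimulation in WT, stimulation in cKO, difference). They became 0, 0, 2, 2 and 0 with a filter of 1 TPM and with none. With TPM as deposited they were 0 and 1 with genotype, 2 on stimulation in cKO and 0 for the difference, which was also 0 with a pseudocount of 0.1 and with median-of-ratios scaling. Quantile normalization gave 4 and 5 in the genotype comparisons, voom 4 ex vivo and the groups compared only 1 ex vivo. All genes called were 704, 921, 4262, 5836 and 147. Leaving aside stimulation in cKO, whose count moved by less than 1.5 times, they became 57, 68, 1839 and 0 with a filter of 1 TPM, 56, 66, 1685 and 0 with none, and 273, 306, 1943 and 67 as deposited. The groups compared only gave 310 and 546 with genotype, quantile normalization 1579 with genotype after stimulation and 392 for the difference, and voom 1203 ex vivo and 394 for the difference.

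Signs turned as follows. Tnfrsf8 with genotype after stimulation was -0.21 as deposited, -0.22 with a filter of 1 TPM or none, -0.23 with quantile normalization and -0.012 with voom. Tnfrsf25 on stimulation in WT was 0.19 as deposited and with quantile normalization and 0.027 with median-of-ratios scaling, and in cKO -0.093 with a filter of 1 TPM and -0.079 with none. Tnfrsf4 on stimulation in cKO was -0.025 and -0.011 with those filters, where the median gene shifted by -0.49 and -0.48. Tnfrsf1b there was -0.10 as deposited and -0.32 and -0.30 with those filters, Cd27 was 0.33 and Tnf 0.12 with quantile normalization, and Nr4a1 was -0.17, -0.39 and -0.38 as deposited and with those filters, and 0.25 in WT with quantile normalization. The differences of Tnfrsf9 and Tnfrsf25 were -0.11 and -0.076 as deposited.

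With 1 library left out, members called ranged from 1 to 3, 2 to 4, 6 to 6, 4 to 6 and 0 to 2, and all genes called from 324 to 740, 397 to 1052, 3256 to 4387, 4098 to 5988 and 50 to 203. Changes that turned sign ranged from -0.0057 to 0.089 for Tnfrsf1b with genotype ex vivo, from -0.080 to 0.14 for Tnfrsf8 with genotype after stimulation, from -0.067 to 0.069 for Tnfrsf25 on stimulation in WT, from -0.027 to 0.36 for Nr4a1 in cKO, and from -0.36 to 0.028 and -0.34 to 0.0036 for the differences of Tnfrsf4 and Tnfrsf18. Same-numbered WT and cKO libraries ex vivo had deviations from their group means that correlated at 0.078 to 0.26. Differently numbered ones there correlated at -0.18 to 0.063. Between the other groups compared, same-numbered libraries correlated at -0.21 to 0.057. Whether replicate numbers pair the libraries ex vivo cannot be settled from these values. With the replicate block 1 member was called ex vivo and 0 for the difference, where 65 genes were called. Tnfrsf8 and some ligands had few reads, and the effect of depth on their results was not tested.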

Other observations

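The genes around the 2 pairs of neighbouring receptors were read for comparison with them. Fam132a, 47.2 kb from the Tnfrsf4 and Tnfrsf18 pair, was higher in cKO by 0.78 ex vivo and 0.85 after stimulation and rose on stimulation by 0.93 in WT and 1.01 in cKO (limma, adjusted p = 0.00682, 0.0033, 0.000345 and 0.000171). Sdf4, which ends 0.233 kb before Tnfrsf4 begins, had genotype changes of 0.20 and 0.24 that did not pass (limma, adjusted p = 0.416 and 0.232) and rose on stimulation by 0.34 and 0.38 (limma, adjusted p = 0.0442 and 0.0223). The antisense gene Gm16008 over Tnfrsf18 changed by 0.48 ex vivo and 0.52 after stimulation in cKO (limma, adjusted p = 0.0651 and 0.0414). On the other side, 9430015G10Rik and Agrn did not pass with genotype (limma, adjusted p from 0.0557 to 0.838). Around Tnfrsf1b and Tnfrsf8, Dhrs3 was higher by 0.47 in stimulated cKO Treg (limma, adjusted p = 0.0199) and Vps13d, 18.5 kb away, changed by -0.04 ex vivo and -0.27 after stimulation (limma, adjusted p = 0.91 and 0.151). Gm13024 and Gm13227, on the other side, did not pass with genotype and rose on stimulation in cKO by 0.95 and 1.02 (limma, adjusted p = 0.0414 and 0.0157).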
